A study of Mus musculus with 6 samples.

Results

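The mitochondrial ribosomal proteins are the nuclear-encoded proteins of the ribosome that works inside mitochondria, here in KPC001, a pancreatic cancer cell line from the KPC mouse model. They were taken as every gene symbol of the array's annotation that starts with Mrpl (large subunit) or Mrps (small subunit) followed by a digit. The rule found 76 genes, 48 of the large and 28 of the small subunit, among 19057 genes with 1 symbol, and 132 of the 45281 probes. KPC001 cells were grown in high-glucose DMEM with 10% FBS, and the labels give no treatment. They were divided into a CD133+ and a CD133- population. CD133 is a surface glycoprotein, encoded by Prom1, that marks tumour-initiating cells in several cancers. Each population had 3 samples, measured on 1 Illumina mouse bead array apiece. Both populations come from the same single line, whose alleles are not given in the sources used here. Nothing says whether the replicates were separate cultures or sorts, so p-values reflect the spread among these samples alone, which could be technical. These are bulk samples, in which fewer cells of a type and less RNA per cell cannot be told apart.

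The mitochondrial ribosome translates the few messenger RNAs that mitochondrial DNA encodes, all of them for subunits of the respiratory chain and the ATP synthase. Its own proteins are made in the cytosol from nuclear genes and imported, and they assemble on mitochondrial ribosomal RNA. Many have a bacterial counterpart, while others were added to the ribosome after the bacterial ancestor of mitochondria entered the eukaryotic cell. The names follow the subunit except in a few cases. Mrps18a and Mrps30 were named for the small subunit but sit in the large subunit of the mammalian mitochondrial ribosome.

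Between 17123 and 18057 probes were detected on each array, at a detection p under 0.05, and a median of 35 to 38 beads lay behind each member probe. Of the 7 ductal carcinoma markers looked up, 6 were detected (Krt8, Krt18, Krt19, Krt7, Cdh1 and Sox9) and Epcam was not. Prom1 was not detected, and the labels of the populations were therefore not checked by it. None of the leukocyte or endocrine markers found on the array was detected, nor were the acinar markers Cpa1, Amy2a5 and Prss2. The acinar marker Ela1 was not found by that symbol, but Cela1, a later symbol of this gene, was detected (log2 difference -0.09). Col1a1 was 1 of 5 fibroblast markers and Kdr 1 of 3 endothelial markers that were detected. Arrays of the same population differed by 1.25 to 1.60 times their bead error, and arrays of different populations by 1.59 to 1.81 times. No array held a copy of another's values, and whether they come from separate cultures cannot be read from this.

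Nearly the whole family was expressed in this line. A gene was called detected where any of its probes had a detection p under 0.05 on 3 or more of the 6 arrays. By that rule 72 of 76 genes were detected, 45 of 48 in the large and 27 of 28 in the small subunit, and 71 of them had a probe detected on all 6 arrays. Of all genes with 1 symbol on the array 49.5% were detected, against 94.7% of the family. Counted by probe, 110 of 132 member probes were detected (83.3%), beside 38% of all probes and 42.3% of the probes with 1 symbol. On single arrays, 65 to 69 of the 83 large subunit probes and 41 to 43 of the 49 small subunit probes were detected, and these ranges overlapped between the populations.

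The genes without a detected probe were Mrpl19, Mrpl32 and Mrpl45 of the large subunit and Mrps14 of the small subunit. Both probes of Mrpl19 and the single probes of Mrpl32 and Mrps14 were detected on 0 arrays, with mean log2 intensities between 4.33 and 4.55 in each population. Of the 2 probes of Mrpl45, one was detected on 0 arrays and the other on 2, 1 in each population. Absence of a signal from a probe is not absence of the transcript here. Of the 22 member probes that were not detected, 16 belonged to genes that another probe did detect, among them Mrpl21, Mrps9 and Mrps22.

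The comparison of CD133+ with CD133- cells asked which genes of the family differ between the populations. None of the 110 tested member probes passed limma's test (adjusted p under 0.05, Benjamini-Hochberg) in the fit of all 17219 tested probes, of which 1.53% passed. The smallest adjusted p of a member was 0.119, for Mrpl48. At an unadjusted p under 0.05 there were 19 member probes, 8 higher in CD133+ cells and 11 lower, each of a different gene. That is 17.3% of the member probes, beside 16.6% of all tested probes (9.08% higher and 7.53% lower). The 3 CD133+ arrays lay wholly apart from the 3 CD133- arrays for 29 member probes (26.4%), 13 of them higher and 16 lower, where this held for 23.1% of all tested probes (11.5% higher and 11.6% lower). In this fit the family lay close to the rest of the array by both counts. With a median shift in place of quantile normalization, the split at an unadjusted p under 0.05 was 0 higher and 23 lower, beside 4.79% and 14.3% of all tested probes.

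The differences were also bounded by their errors. Log2 differences of the 110 probes (CD133+ minus CD133-) ran from -0.54 to 0.41, with a median standard error of 0.0974. For 100 of the 110 probes (90.9%) the 95% interval of the difference lay within a 1.5-fold change in either direction, beside 77.3% of all tested probes. For all 110 tested member probes it lay within a 2-fold change, beside 98.5%. These intervals belong to single probes and are not adjusted for their number. The members were also brighter than the tested probes at large, and the shares were not matched for intensity. Median log2 intensities on single arrays were 9.086 to 9.214 for the large and 8.897 to 9.195 for the small subunit probes. Over all tested probes the median was 7.092. The 10 probes whose interval crossed a 1.5-fold limit belonged to Mrpl1, Mrpl3, Mrpl13, Mrpl15, Mrpl37, Mrpl49, Mrpl51, Mrpl52, Mrps15 and Mrps27. An interval can cross through a difference far from 0 (Mrps27, SE 0.11) as well as through a large error (Mrpl51, SE 0.26). Of these 10 probes 5 were dim, with a mean log2 intensity under 7. Among the other 100 probes 15 were that dim.

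**Figure D1:**
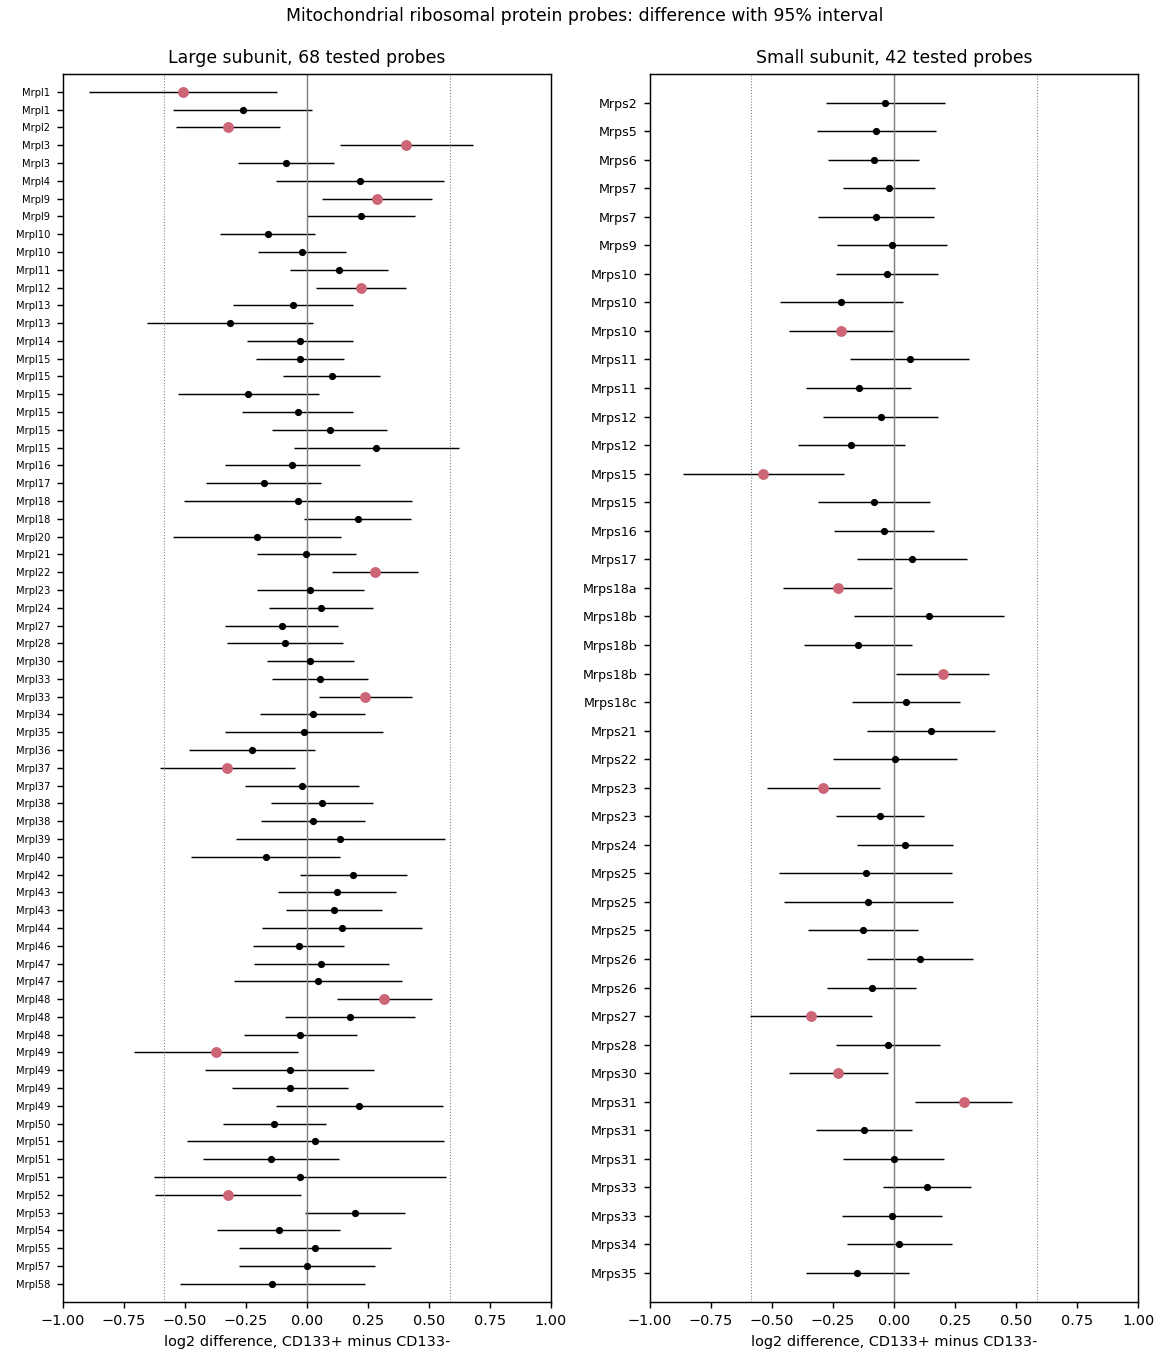
Log2 difference in intensity (x axis, CD133+ minus CD133-) of each tested probe, with 1 row per probe labelled by gene, for 68 large subunit probes (left) and 42 small subunit probes (right). Points are fitted differences and bars their 95% intervals, red points have an unadjusted p under 0.05, and dotted lines mark a 1.5-fold change. The points lie on both sides of 0 and between -0.54 and 0.41, and 10 of the 110 intervals cross a dotted line.

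The call of 0 members depended on how the variance was modelled and on the background correction. With a variance trend and robust estimation in limma, 12 of the 110 member probes passed (10.9%), beside 6.37% of all tested probes. Without background correction 13 passed (11.8%, beside 6.44%), with the authors' processed intensities 12 (10.9%, beside 6.72%), and with a normal-exponential correction that does not use negative controls 5 (4.55%, beside 4.26%). In all, 13 member probes passed in at least 1 of these 4 settings. The 5 that passed in all 4 were those of Mrpl48, Mrpl22, Mrpl3, Mrpl2 and Mrps15. With each of the other 13 settings 0 member probes passed. In the settings with 1 array left out 0.0407% to 0.0813% of all tested probes passed, so that a count of 0 there says little about the family.

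Of the large subunit probes with an unadjusted p under 0.05, 6 were higher and 5 lower in CD133+ cells. Mrpl48, a protein of the mitochondrial ribosome without a bacterial counterpart, had log2 intensities of 8.63, 8.68 and 8.72 on the CD133- arrays and 9.03, 9.04 and 8.91 on the CD133+ arrays. All CD133+ arrays lay above all CD133- arrays, and the difference was 0.32 ± 0.08 (SE, n = 3 per group; 1.25-fold; limma adjusted p = 0.119). Its other tested probes gave 0.18 ± 0.11 and -0.03 ± 0.10, so the higher value was not shared by all probes of the gene. Mrpl22, whose bacterial counterpart lines the tunnel through which the new chain leaves the ribosome, had 10.02, 10.01 and 10.01 on the CD133- arrays and 10.28, 10.29 and 10.32 on the CD133+ arrays. The arrays of each population lay close together, and the difference was 0.28 ± 0.08 (1.22-fold, adjusted p = 0.125). Mrpl22 had this 1 probe.

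Mrpl3, the counterpart of a bacterial protein that reaches towards the peptidyl transferase centre, had 9.28, 9.07 and 9.05 on the CD133- arrays and 9.63, 9.35 and 9.65 on the CD133+ arrays. The populations did not overlap, although CD133+ replicate 2 lay near the highest CD133- array. The difference of 0.41 ± 0.12 (1.33-fold, adjusted p = 0.145) was the largest positive one among the member probes, and the other tested probe of Mrpl3 gave -0.09 ± 0.08. Mrpl9, which also has a bacterial counterpart, was higher on both of its probes, by 0.29 ± 0.10 and 0.22 ± 0.10 (adjusted p = 0.200 and 0.301). Its values were 9.25, 9.45 and 9.26 against 9.50, 9.65 and 9.67 on the first, again without overlap.

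Mrpl33, a small protein with a bacterial counterpart, gave 0.24 ± 0.08 on one probe and 0.05 ± 0.08 on the other. Mrpl12 forms the stalk that recruits translation factors and in human cells also binds the mitochondrial RNA polymerase. Its intensities were 11.26, 11.30 and 11.33 on the CD133- arrays and 11.48, 11.57 and 11.50 on the CD133+ arrays. The populations were apart, by 0.22 ± 0.08 (1.17-fold, adjusted p = 0.219), on its single probe.

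Other large subunit genes were lower in CD133+ cells. Mrpl2, the counterpart of a bacterial protein next to the peptidyl transferase centre, had 8.94, 9.11 and 9.09 on the CD133- arrays and 8.76, 8.64 and 8.79 on the CD133+ arrays. The populations did not overlap, with a difference of -0.32 ± 0.09 (0.80-fold, adjusted p = 0.139). Mrpl1, a protein of the stalk on the other side of the subunit, was lower on both tested probes, by -0.51 ± 0.17 and -0.26 ± 0.12 (adjusted p = 0.187 and 0.338). On the first probe, which was dim and detected on 2 of 3 CD133+ arrays, its values were 5.78, 5.58 and 5.49 against 5.45, 4.82 and 5.08. These lay apart by a narrow margin.

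Mrpl37, Mrpl49 and Mrpl52 have no bacterial counterpart. Mrpl37 had -0.33 ± 0.12 on one probe and -0.02 ± 0.10 on the other. Mrpl52 had -0.32 ± 0.13 on its single probe. Mrpl49 had -0.37 ± 0.14 on one of 4 tested probes, whose populations overlapped, and between -0.07 and 0.21 on the others. Mrpl13, with a bacterial counterpart, had -0.31 ± 0.15 and -0.06 ± 0.10. None of these genes passed (adjusted p from 0.231 to 0.338 on the probes with the smallest p). Mrpl44, a protein with a fold of the ribonuclease III family, had 0.15 ± 0.14 with overlapping populations, and 0.00 with a median shift.

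In the small subunit most of the smallest p-values belonged to genes lower in CD133+ cells. Mrps15, the counterpart of a protein that binds ribosomal RNA directly in the bacterial small subunit, had log2 intensities of 7.36, 7.54 and 7.77 on the CD133- arrays and 7.005, 7.22 and 6.83 on the CD133+ arrays. The populations did not overlap and the replicates of each were spread widely. The difference of -0.54 ± 0.14 (0.69-fold, adjusted p = 0.1201) was the lowest of the family, while the other tested probe of Mrps15, detected on 4 arrays, gave -0.08 ± 0.10. Mrps27, a pentatricopeptide repeat protein in human mitochondria, had 7.61, 7.62 and 7.56 against 7.12, 7.46 and 7.19. The CD133- arrays lay close together above all CD133+ arrays, with a difference of -0.34 ± 0.11 (0.79-fold, adjusted p = 0.173) on its single probe.

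Mrps23, which has no bacterial counterpart, gave -0.29 ± 0.10 and -0.06 ± 0.08 on its 2 probes, and in both cases the populations did not overlap. Mrps10, with a bacterial counterpart, gave -0.22 ± 0.09, -0.22 ± 0.11 and -0.03 ± 0.09. Of the genes higher in CD133+ cells, Mrps31 (no bacterial counterpart) gave 0.28 ± 0.09 on one probe, beside -0.12 ± 0.08 and 0.00 ± 0.09 on brighter ones. Mrps33, Mrps21, Mrps17 and Mrps24 had differences of 0.13 ± 0.08, 0.15 ± 0.11, 0.07 ± 0.10 and 0.04 ± 0.08. The other probe of Mrps33 gave -0.01 ± 0.09. Each of the 4 was below 0 with a median shift in place of quantile normalization, a setting that moved the median of all genes to -0.16. Mrps22, a protein without a bacterial counterpart, had 0.00 ± 0.11 (95% interval -0.25 to 0.26) and was below 0 with the authors' intensities, a median shift, array weights and without replicate 1 of either population.

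**Figure D2:**
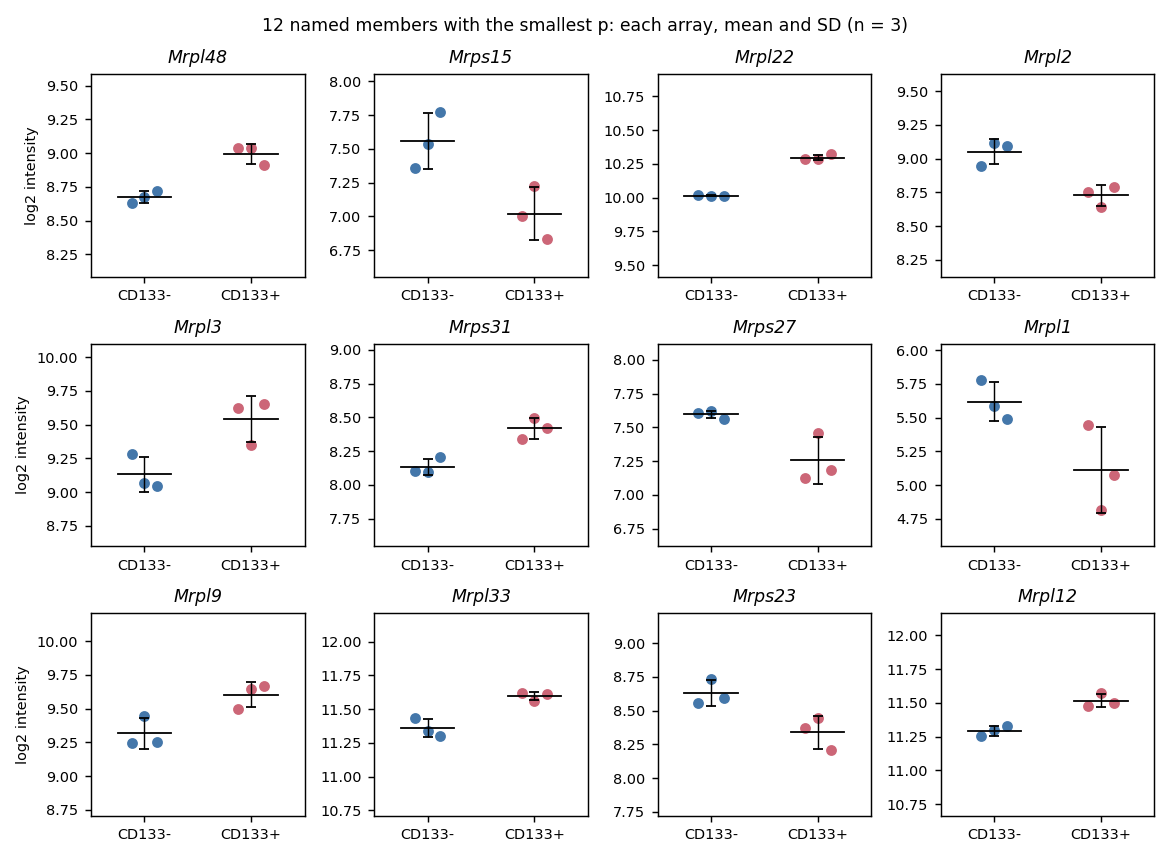
Log2 intensity (y axis, each panel spanning the same number of log2 units) on each CD133- array (blue) and CD133+ array (red) for the 12 named members with the smallest p. Points are single arrays, horizontal lines the group means and bars the SD over 3 arrays. The 2 populations do not overlap in any of the 12 panels, yet the steps between group means are small, at most 0.54, and none passed the adjusted threshold.

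None of the 3 paralogues of bacterial S18 passed the test. Mrps18a, which sits in the large subunit, had 9.26, 9.16 and 9.27 on the CD133- arrays and 9.06, 9.08 and 8.86 on the CD133+ arrays, without overlap, and a difference of -0.23 ± 0.10 (0.85-fold, adjusted p = 0.279). Mrps18c gave 0.05 ± 0.09 with overlapping populations, and -0.13 with a median shift. The 3 tested probes of Mrps18b gave 0.20 ± 0.08, 0.14 ± 0.13 and -0.15 ± 0.10. Differences between the paralogues were not tested. Mrps30, the other protein of the large subunit with a small subunit name, had 11.08, 11.13 and 11.25 on the CD133- arrays and 10.94, 10.86 and 10.96 on the CD133+ arrays. These did not overlap, with a difference of -0.23 ± 0.09 (0.85-fold, adjusted p = 0.244).

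The subunits were then set side by side with each gene represented by the tested probe of highest mean intensity. The median log2 difference was -0.01 over 45 large subunit genes and -0.06 over 27 small subunit genes, beside -0.03 over the 9430 genes tested this way. Without CD133+ replicate 3 the small subunit median was -0.03, as for all genes, and without CD133- replicate 3 it was -0.09. Of the large subunit genes 24 were below 0 (53.3%), and of the small subunit genes 21 (77.8%), beside 58.5% of all genes. Groups lay apart for 6 large subunit genes upwards and 6 downwards, and for 0 small subunit genes upwards and 8 downwards. Of all genes 9.05% lay apart upwards and 14% downwards. At an unadjusted p under 0.05 the counts were 4 higher and 3 lower in the large subunit and 0 higher and 5 lower in the small subunit, with 6.27% and 8.43% of all genes. With Mrps18a and Mrps30 counted in the large subunit, where they sit, these counts were 4 higher and 5 lower in the large and 0 higher and 3 lower in the small subunit.

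Averaged over its 42 tested probes, the small subunit had log2 intensities of 8.96, 8.96 and 8.98 on the CD133- arrays and 8.91, 8.92 and 8.89 on the CD133+ arrays. The populations did not overlap, and the mean difference was -0.06, beside -0.03 over the representative probes of all genes and 0.00 over all tested probes. The 68 large subunit probes averaged 8.70, 8.74 and 8.71 on the CD133- arrays and 8.74, 8.70 and 8.69 on the CD133+ arrays, and these overlapped. Quantile normalization left the mean of all tested probes at 7.421 to 7.425 on every array, so 0.00 is largely set by the method. Under the 17 other settings the small subunit mean was 0.04 to 0.11 below the mean of all tested probes. The 0.11 came with a median shift, and the others were at most 0.07. These settings reuse the same arrays and are no independent support. These averages were looked at after the values of the genes were known, and neither the small subunit mean nor its difference from the large subunit was tested. With Mrps18a and Mrps30 counted in the large subunit, the medians were -0.03 for the large and -0.06 for the small subunit. The 43 tested genes with a bacterial counterpart had a median of -0.04 and the 27 without one a median of -0.06.

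**Figure D3:**
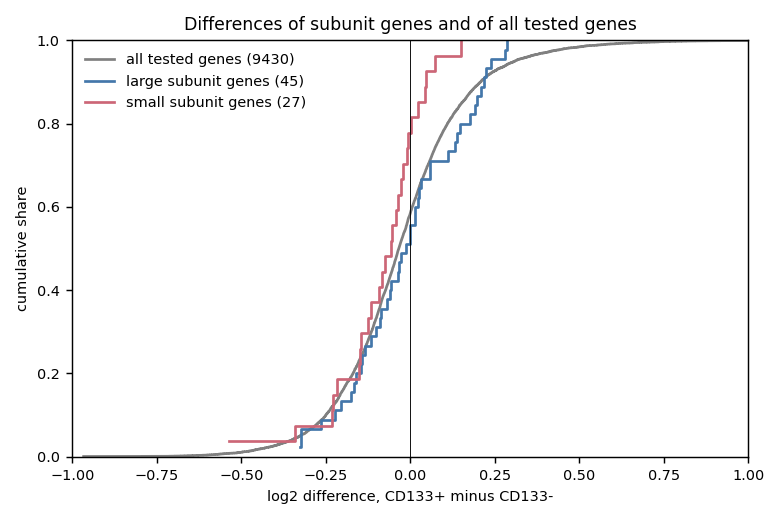
Cumulative share of genes (y axis) with a log2 difference up to the value on the x axis (CD133+ minus CD133-), for 45 large subunit genes, 27 small subunit genes and all 9430 tested genes, each represented by 1 probe. The large subunit curve runs near that of all genes, and the small subunit curve reaches 77.8% at 0, where all genes reach 58.5%.

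Probes of the same gene did not always give the same direction. Of 26 family genes with more than 1 tested probe, 5 were higher and 10 lower in CD133+ cells on all of their probes, and 11 were mixed. No gene had probes that differed in opposite directions with p under 0.05 each. For the 18 genes with exactly 2 tested probes, 13 had both on the same side (72.2%), beside 54.8% of all genes with 2 tested probes, and the median gap between the probes was 0.191, beside 0.163. Mrpl15, a protein with a bacterial counterpart and the most probes of the family, had 6 tested probes between -0.24 and 0.28, none with an unadjusted p under 0.05. Mrps25, without a bacterial counterpart, had 3 that agreed closely, between -0.13 and -0.11.

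Some sequence features were more frequent in the promoters of the family than in those of all tested genes. The choice of genes did not use them. RefSeq promoter windows of 300 bases on GRCm38.p6 (250 before and 50 after the start) were found for 67 of the 76 genes, 73 windows in all. NRF-1 and the ETS-family factor GABP are transcription factors known to act at many nuclear genes for mitochondrial proteins. The NRF-1 letters (GCGCA and GCGC with any base N between them) were in 17.8% of the family's windows, beside 10.3% of the windows of all tested genes and 4.6% of all windows. The ETS letters CCGGAAG were in 35.6%, beside 18.2% and 8.86%, and either motif in 47.9%, beside 26.1% and 12.6%. An 11-letter YY1 consensus was in 6.85%, beside 1.49% and 0.633%. The CCAAT box (CCAAT) was as frequent as elsewhere (38.4%, beside 37.6% and 37.4%), and so, against tested genes, were the E-box CACGTG (9.59%, beside 10.2%) and the TATA letters TATAAA (6.85%, beside 7.37%). Both strands were searched, none of these motifs contains another, and a match is only a match of letters. The median number of CpG pairs in a window was 21 for the family, as for all tested genes, and 7 for all windows.

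**Figure D4:**
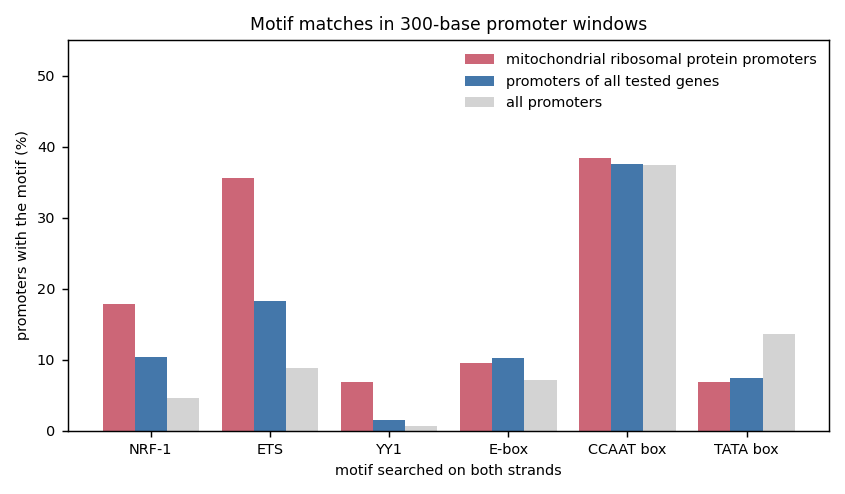
Share of 300-base promoter windows (y axis, percent, from 0) with a match to each of 6 motifs (x axis), for the mitochondrial ribosomal protein genes (red), all tested genes (blue) and all RefSeq promoters (grey). The family stands at 35.6% for ETS and 17.8% for NRF-1, against 18.2% and 10.3% for tested genes, and near the others for the CCAAT box.

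In the family as a whole, 35 of 67 genes had the NRF-1 or ETS letters in the window. Of the 19 family genes with an unadjusted p under 0.05, 11 had these letters in the window. They stood before the start in 8 of these genes, a position not counted for the whole family. Stretches of 90 bases from these 8 promoters are printed to show that the ETS letters stand before genes with higher and with lower values in CD133+ cells. The 2 NRF-1 stretches are both of genes with higher values. The direction given is that of the probe with the smallest p, and another probe of Mrpl3 and of Mrpl48 lay below 0. Each runs 5′ to 3′ on the strand of its gene, from RefSeq on GRCm38.p6, with the motif in capitals.
Mrpl9 (higher; NRF-1; chr3:94443246-94443335, plus strand): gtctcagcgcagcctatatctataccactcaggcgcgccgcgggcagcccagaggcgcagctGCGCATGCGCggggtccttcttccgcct
Mrpl12 (higher; NRF-1; chr11:120484516-120484605, plus strand): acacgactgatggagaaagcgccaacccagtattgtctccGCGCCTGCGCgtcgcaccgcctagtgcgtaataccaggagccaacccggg
Mrpl48 (higher; ETS; chr7:100583131-100583220, minus strand): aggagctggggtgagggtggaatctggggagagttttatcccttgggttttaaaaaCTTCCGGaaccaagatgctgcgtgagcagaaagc
Mrpl22 (higher; ETS; chr11:58171570-58171659, plus strand): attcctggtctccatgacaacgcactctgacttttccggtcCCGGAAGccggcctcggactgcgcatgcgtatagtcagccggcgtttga
Mrpl3 (higher; ETS; chr9:105053178-105053267, plus strand): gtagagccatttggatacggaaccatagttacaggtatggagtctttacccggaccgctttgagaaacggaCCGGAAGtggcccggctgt
Mrpl52 (lower; ETS; chr14:54426819-54426908, plus strand): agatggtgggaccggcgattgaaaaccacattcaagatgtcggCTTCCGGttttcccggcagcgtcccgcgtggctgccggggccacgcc
Mrps27 (lower; ETS; chr13:99344696-99344785, plus strand): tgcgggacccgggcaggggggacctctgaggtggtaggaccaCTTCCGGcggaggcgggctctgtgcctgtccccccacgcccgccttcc
Mrps18a (lower; ETS; chr17:46110914-46111003, plus strand): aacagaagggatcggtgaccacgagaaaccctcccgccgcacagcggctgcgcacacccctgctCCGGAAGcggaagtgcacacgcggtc

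With each gene represented by its brightest tested probe, which places Mrpl3 below 0, 7 tested family genes with the NRF-1 letters lay above 0 and 4 below. With the ETS letters 11 lay above and 15 below. With either motif 16 lay above and 17 below, with a median log2 difference of 0.00. Of those with neither, 8 lay above and 23 below, with a median of -0.08. Of all genes 58.5% lay below 0, with a median of -0.03, and all genes were not split by motif. The difference between the family's medians with and without a motif was not tested, and the same genes enter both the subunits and these counts.

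Other genes of mitochondrial translation were read from 5 lists, 67 tested genes in all, of which 1 passed, beside 1.13% of all genes. Mrrf, the factor that releases mitochondrial ribosomes for a next round, rose in CD133+ cells. Its log2 intensities were 7.40, 7.49 and 7.53 on the CD133- arrays and 8.03, 7.89 and 7.91 on the CD133+ arrays. The populations lay apart by 0.47 ± 0.09 (1.39-fold, limma adjusted p = 0.0492) on its single tested probe. The difference was positive in all 17 alternatives (0.32 to 0.50), and it passed in 8 and not in 9, with adjusted p from 0.00137 to 0.205. The call was lost with each array left out, with the replicate block (adjusted p = 0.142), with a median shift and with no filter on detection. Of the other 15 tested translation factors none passed on any probe. Oxa1l, the insertase that receives the new chains, had 0.34 ± 0.09 and 0.21 ± 0.12. Lrpprc, a protein that stabilises mitochondrial messenger RNA, had 0.56 ± 0.13 on one probe and 0.00 ± 0.10 and -0.04 ± 0.24 on the others. Tufm, the elongation factor that brings aminoacyl-tRNA, had -0.21 ± 0.08.

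Ribosome proteins that carry other names gave 0 of 4. Dap3, a GTP-binding protein of the small subunit, had 0.50 ± 0.10 (adjusted p = 0.0657) on one of 4 tested probes and between -0.06 and 0.05 on the others. Ptcd3 had -0.23 ± 0.13, Chchd1 -0.11 ± 0.09 and Gadd45gip1 -0.01 ± 0.08. Assembly and ribosomal RNA modification factors gave 0 of 18. Gtpbp10, a GTPase of large subunit assembly, was higher on each of its 4 tested probes. The differences were 0.56 ± 0.12, 0.49 ± 0.10, 0.37 ± 0.10 and 0.34 ± 0.14, with adjusted p from 0.0685 to 0.283. Rbfa, an assembly factor of the small subunit, had 0.34 ± 0.09 and -0.09 ± 0.08 on its 2 probes. Mterf4 had 0.24 ± 0.11, 0.01 ± 0.10 and -0.15 ± 0.10 on its probes and Mrm1, a methyltransferase of mitochondrial ribosomal RNA, -0.19 ± 0.09.

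Mitochondrial aminoacyl-tRNA synthetases and the partner enzyme subunit Gatc gave 0 of 16, with -0.32 ± 0.10 for Tars2. Gatc had 0.41 ± 0.12 and -0.09 ± 0.09 on its 2 tested probes. Wars2 had 0.45 ± 0.15 on a dim probe, and Cars2 had 0.47 ± 0.18 on a dim one and -0.13 ± 0.17 on another. The dim probe of Cars2 was detected on 1 of 3 CD133- and 3 of 3 CD133+ arrays. It thus met the filter through the CD133+ arrays, where it was higher. Mitochondrial transcription and RNA processing gave 0 of 13. Polrmt, the mitochondrial RNA polymerase, had -0.17 ± 0.08 and its initiation factor Tfb2m -0.29 ± 0.10. Hsd17b10, a subunit of mitochondrial ribonuclease P, had -0.25 ± 0.09. Elac2, which cuts the other end of tRNAs, had -0.27 ± 0.14, -0.25 ± 0.15 and 0.06 ± 0.15 on its probes. The median log2 difference over the 67 genes was -0.07, beside -0.03 over all genes.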

How the data were processed

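Gene expression was measured on 6 bead arrays of KPC001 cells, 3 CD133+ and 3 CD133-, grouped and numbered by sample title (a title without a number was taken as replicate 1). For each of 45281 probes the first deposited table gave a mean bead intensity, its standard error, a bead count and a detection p-value. Its deposited intensities carry no background subtraction or normalization, per the file headers. Another deposited table gave the authors' processed intensities, which ranked the probes of each array as the first did (rank correlation 1, ratio 0.852 to 1.11, medians 118.7 to 120.5). Their method, slides and scan dates are not known here.

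Background was corrected and log2 intensities were quantile-normalized with neqc of limma 3.58.1 in R 4.3.3, with an offset of 16 and negative controls read back from the detection p-values. Probes with a detection p under 0.05 on 3 or more arrays (17219) were tested with lmFit and eBayes, two-sided, adjusted by Benjamini-Hochberg over all of them. Intervals are 95% intervals of that fit. The number of arrays limits the precision. The fit was tested on simulated data, where the share of false calls was above the adjusted threshold. It was higher without a variance trend, as in the reported fit, than with one. Adjusted p-values of the reported fit near the threshold, as for Mrrf and Tcp1, may therefore be too small. Gene symbols are those of GEO's platform annotation, possibly outdated. All 132 member probes matched a RefSeq gene, with 0 symbols changed. Probe sequences were not used here. Promoters were searched in Python 3.11.15.

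Named members were those with an adjusted p under 0.05 and, in each subunit, the 6 higher and 6 lower genes with the smallest p, those with no detected probe, those with probes of opposite sign, and a fixed set (the S18 paralogues, Mrps30, Mrpl12, Mrpl44, Mrps27, Mrps22; the array's annotation used here did not list Mrps36 or Mrpl41). Mrpl9, Mrpl15 and Mrps25 as examples of probe agreement and Mrpl21 and Mrps9 as examples of undetected probes were chosen after their values were seen. From each other list up to 4 genes with the smallest p were taken. The family, the lists and the tests were chosen with earlier results of these data known. Alternatives covered background, normalization, filter, variance model, array weights, averaging of probes, a replicate block and each array left out.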

Additional observations from a re-analysis of the deposited data

How the results depend on the processing

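In the reported fit 0 member probes passed, and 0 passed in 13 of 17 alternatives, among them those with few calls over all probes. The exceptions were 13 without background correction, 5 with a normal-exponential correction without negative controls, 12 with the authors' intensities and 12 with a variance trend and robust estimation. At an unadjusted p under 0.05, 8 probes were higher as reported, beside 9.08% of all tested probes. With the authors' intensities 15 were, a setting in which 6.72% of all tested probes passed the adjusted threshold, against 1.53% as reported. With a median shift 0 were, and with 1 array left out 5 to 8 (5 without CD133+ replicate 2). Where the probes of each gene were averaged, 4 of 72 genes were. Apart from the median shift, shares of all at this p are not given for these alternatives. The counts therefore cannot tell a change of the family from a change of all probes. Lower were 11 as reported (7.53% of all tested probes), 23 with a median shift (14.3% of all), 19 without background correction (9% of all), 18 with the variance trend (8.89% of all), 17 with the authors' intensities (8.06% of all), and 6 to 9 with 1 array left out. The fewest, 6, came without replicate 2 of either population, and the share of all tested probes is not given for these fits. A median shift gave medians of -0.1674 for the large and -0.2033 for the small subunit, where all genes had -0.1565. With the probes of each gene averaged the small subunit median was -0.0409, and with 1 array left out -0.0905 to -0.0309. The cause was not tested.

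Of 27 named members 20 kept their sign in every setting. Signs turned with a median shift for Mrps33 (-0.0307), Mrps21 (-0.0174), Mrps17 (-0.0973), Mrps24 (-0.1137), Mrpl44 (-0.0033), Mrps18c (-0.1262) and Mrps22 (-0.1663). Mrps22 also turned with the authors' intensities (-1e-04) and array weights (-0.0012), and ranged from -0.1039 to 0.0651 with 1 array left out. Mrps24 ranged from -0.0043 to 0.0682 and Mrps18c from -0.0072 to 0.092.

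Deviations of CD133- and CD133+ arrays with equal replicate numbers had correlations of 0.0202, 0.00176 and 0.0183. Those with unequal numbers had -0.0501 to 0.0326. Whether equal numbers mark 1 sort or culture cannot be read from this. With the replicate block 0 member probes passed, as did only 6 of all 17219, and 7 were higher and 7 lower at an unadjusted p under 0.05 (9.08% and 6.95% of all). With 3 arrays per population, small differences could not be told from 0.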

Other observations

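Many family genes start close to another gene. In the RefSeq promoters on GRCm38.p6, 25 of 67 family genes (37.3%) had a neighbour that starts on the opposite strand and reads away from them within 1000 bases, beside 20.1% of all tested genes and 12.3% of all genes. The window, the distance and these counts were chosen after the expression values were seen. Mrpl46 of the large and Mrps11 of the small subunit are such a pair, with starts 42 bases apart. Mrpl46 had a log2 difference of -0.03, and the probes of Mrps11 had 0.06 and -0.15. Mrps12 starts 147 bases from Sars2, the mitochondrial seryl-tRNA synthetase, and Mrpl43 starts 116 bases from Twnk, the mitochondrial DNA helicase. Neither pair held a gene that passed. Mrpl47 starts 308 bases from Ndufb5, a subunit of respiratory complex I, and the single tested probe of Ndufb5 gave 0.10.

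Of the 19 neighbours that were tested, Tcp1, a subunit of the cytosolic chaperonin, was the 1 with a probe that passed (0.63, limma adjusted p = 0.038). Of all tested probes 1.53% passed, and the 19 neighbours include the family genes Mrpl46 and Mrps11. The other tested probe of Tcp1 gave 0.12, and the probes of its neighbour Mrpl18, 238 bases away, gave 0.21 and -0.04. Mrpl37 (-0.33 and -0.02) and its neighbour Cyb5rl (-0.44) were both below 0, while Mrps27 (-0.34) and its neighbour Ptcd2 (0.26, 0.03 and 0.27) lay on opposite sides. The 24 tested family genes with a neighbour had a median of -0.06 and the 40 without one a median of -0.02. The difference between them was not tested, and the median over all genes was -0.03.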
